A study of Caenorhabditis elegans with 2 samples.

Results

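The cuticle collagen genes named col- were examined for binding of PHA-4, the FoxA transcription factor that specifies the pharynx of Caenorhabditis elegans. Membership was set by name: all 156 protein-coding genes whose symbol starts with col-, of 19973 protein-coding genes in the Ensembl annotation of the ce11 assembly (WBcel235). The family itself was chosen with earlier results of these data known. Chromatin immunoprecipitation with sequencing was carried out on eGFP-tagged PHA-4 in whole animals at the embryonic stage, mixed in stage and sex, with 2 biological replicates from separate biosamples in 1 group. The antibody field of the labels names pha-4 itself, and each signal is a sum over all cell types of the embryo. Both replicates came from strain OP37, which carries the unc-119(ed3) mutation on chromosome III and the integrated array wgIs37 with the tagged pha-4, so both share the same transgene and the same mutation. Control samples were not analysed here and expression was not measured, so neither the tissue of origin of a binding event nor the activity of a gene can be read from these lists.

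The cuticle is the extracellular coat of the worm, secreted by the epidermis and remade at each moult. It is built mainly from small collagens, whose chains wind around each other through repeats of glycine followed by a pair of other residues (Gly-X-Y), and many of the genes are transcribed in a wave before a given cuticle is laid down. PHA-4 is known for its role in the foregut rather than in the epidermis, so the col- genes are a large family outside its best known targets. Related genes hold other roles in the same coat: collagens known from body shape mutants such as rol-6, enzymes that modify, cross-link and cut collagen, and the cuticlins.

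The label of the family was checked against sequence. In the annotated coding sequence of 155 of the 156 members the number of Gly-X-Y triplets, counted in runs of at least 3, was 20 or more, with a median of 51 over all members, while the median over all protein-coding genes was 0. The exception was col-17, which had 0 triplets in the annotated reading frame and 51 in another frame of the same exons. Predicted proteins ran from 154 to 740 residues with a median of 304. The member col-99, whose product is known as a transmembrane collagen of the nervous system rather than of the cuticle, was among the longest, with 735 residues and 132 triplets.

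A gene was counted as having an entry when the summit of a listed region lay in a promoter window, which reached 1000 bp upstream and 200 bp downstream from each annotated 5' end of that gene. An entry in several such windows counted for each gene. The authors' thresholded set held 2177 entries, the list from both replicates pooled held 21931, and each replicate list held 30000, weak entries included. The thresholded set was the 2177 strongest pooled entries. Signal is the authors' own value for each entry and was not scaled between lists. Sequencing depth is unknown, since only peak lists were analysed.

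A promoter entry was less frequent at col- genes than over all genes. In the thresholded set 4 of 156 members had one (2.56%, exact 95% interval 0.703 to 6.43), beside 9.16% of all protein-coding genes. In the pooled list it was 30 members (19.2%, 13.4 to 26.3) beside 36.5%. The replicate 1 list held an entry at 47 members (30.1%, 23.1 to 38) beside 44.7%, and the replicate 2 list at 42 members (26.9%, 20.1 to 34.6) beside 43.0%. In each of these lists the share of col- genes was below that of all genes, and the ratio of the shares was lowest in the thresholded set, at 0.28, against 0.527 in the pooled list, 0.674 in replicate 1 and 0.627 in replicate 2. Intervals cover the counting of genes only, and with 1 group and 2 replicates no test between conditions was possible.

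**Figure D1:**
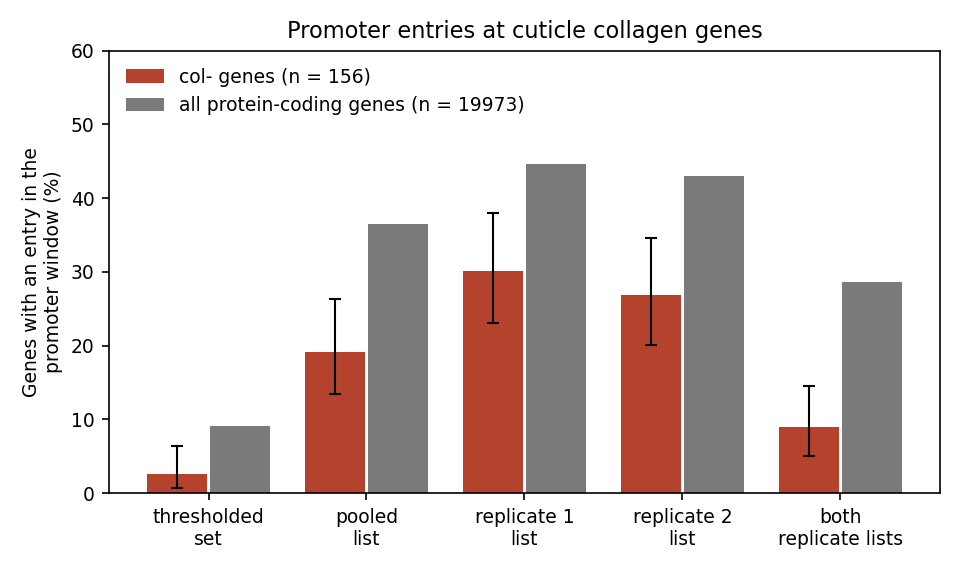
Share of col- genes and of all protein-coding genes (percent, vertical axis) with an entry in the promoter window, for each list and for genes with an entry in both replicate lists. Error bars are exact 95% binomial intervals on the col- shares. The col- share was 2.56% beside 9.16% in the thresholded set and 19.2% beside 36.5% in the pooled list.

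Of the 156 members, 78 had no entry in any of the lists (50%, beside 39.7% of all genes) and 26 had a pooled entry below the threshold (16.7%, beside 27.4%). At the members with one, the strongest pooled signal ran from 9.31 to 101 with a median of 11, beside a median of 18.4 over the 7294 genes with a pooled entry. The median percentile rank within the pooled list was 29.9 for these members and 74.7 for all such genes. In replicate 1 the median percentiles were 43.9 and 70.2, and in replicate 2 they were 55.8 and 69.1.

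The 4 members with a thresholded entry were, by genome position, col-71 and col-38 on II, col-8 on III and col-2 on IV. At col-38 the signal was 101 in the pooled list (rank 228), 60 in replicate 1 and 43.0 in replicate 2. At col-71 it was 52.7 (rank 1168), with 18.7 in replicate 1 and 34.7 in replicate 2. At col-2, which is known for expression in the dauer larva, it was 51.3 (rank 1225), with 22.2 in replicate 1 and 33.5 in replicate 2. All 3 stood at or above the 94th percentile of each replicate list, at 94.0 for col-71 in replicate 1 as the lowest. The entry at col-8 was the weakest of the set, with a pooled signal of 38.8 (rank 1944), 12.1 in replicate 1 (percentile 89.0) and 30.8 in replicate 2 (percentile 96.2). The weakest entry of the whole thresholded set had a signal of 35.9, and the strongest member outside it was col-185 at 27.8.

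The 4 thresholded entries each lay in the promoter windows of both a collagen gene and a gene of another kind on the opposite strand, and each summit was nearer to the 5' end of that other gene. The col-38 entry lay at 428 bp upstream of col-38 (distance -428) and at -411 bp from rpl-5, which encodes a protein of the large ribosomal subunit. The col-71 entry lay at -250 bp from col-71 and -148 bp from Y49F6B.2, annotated by RefSeq as a protein with a pre-rRNA processing domain. The difference in distance was small at col-38 and larger at the other members. The col-2 entry lay at -428 bp from col-2 and -258 bp from ndc-80, a kinetochore gene. The col-8 entry lay at -829 bp from col-8 and at -456 bp from the 5' end of rfl-1 whose window held it. The nearest 5' end of rfl-1 was another one, 223 bp upstream of the summit, and the summit lay inside an annotated 5' untranslated region of rfl-1, which encodes the catalytic subunit of the NEDD8-activating enzyme. Each entry was then given only to the gene of the nearest 5' end. In the thresholded set the count of members fell from 4 to 0, beside 6.64% of all genes under the same rule. Of the 1830 genes with a thresholded entry, 72.5% kept one. Of these 1830, 917 had no other gene's 5' end in the window, whereas the windows of all 4 members held one. In the pooled list 23 of the 30 members kept one (76.7%), beside 84.0% of all genes. Peak position alone does not show which gene of a pair an entry acts on.

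The sequences at the summits of col-38, col-71 and col-2 are shown because these 3 entries carry the thresholded signal of the family outside untranslated sequence, together with that at bli-6, a collagen gene named for its blister phenotype. They were read from the RefSeq copy of WBcel235, 75 bases on each side of the summit, on the strand of the collagen gene: chrII:8569441-8569591 on the minus strand for col-38, chrII:3502745-3502895 on the minus strand for col-71, chrIV:10085804-10085954 on the minus strand for col-2 and chrIV:6376648-6376798 on the plus strand for bli-6. Capitals mark matches, on either strand, to the relaxed PHA-4 site, to GAGAGA and to TGATAA, which are spelled out with the motif results.
col-38: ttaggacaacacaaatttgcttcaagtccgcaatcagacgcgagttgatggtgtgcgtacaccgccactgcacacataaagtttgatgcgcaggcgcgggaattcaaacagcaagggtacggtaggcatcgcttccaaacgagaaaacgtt
col-71: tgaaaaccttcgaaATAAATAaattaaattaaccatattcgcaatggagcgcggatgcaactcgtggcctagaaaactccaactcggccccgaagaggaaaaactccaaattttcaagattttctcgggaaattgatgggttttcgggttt
col-2: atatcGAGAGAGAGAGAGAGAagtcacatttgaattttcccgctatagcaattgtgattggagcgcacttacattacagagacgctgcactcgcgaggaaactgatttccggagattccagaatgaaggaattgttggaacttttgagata
bli-6: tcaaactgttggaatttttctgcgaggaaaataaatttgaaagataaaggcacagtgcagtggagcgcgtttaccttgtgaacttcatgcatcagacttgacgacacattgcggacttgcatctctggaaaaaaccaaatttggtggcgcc

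The col-71 stretch holds 1 relaxed site, the col-2 stretch a run of 6 overlapping GAGAGA matches, and the col-38 and bli-6 stretches none of the motifs. After these letters were seen, a pair of words was also counted within 100 bp of each summit. GGAGCGC stood at 2 of the 4 thresholded col- entries (col-2 and col-71) and at 8.07% of the 1363 thresholded promoter entries of all genes. AGACGC stood at 2 of 4 (col-2 and col-38) and at 25.2% of all. A set of 4 entries is too small to set these shares apart from the background. The printed bli-6 stretch also holds GGAGCGC. In the pooled list GGAGCGC stood at 6.9% of col- entries beside 3.72% of all promoter entries, and AGACGC at 10.3% beside 12.1%.

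**Figure D2:**
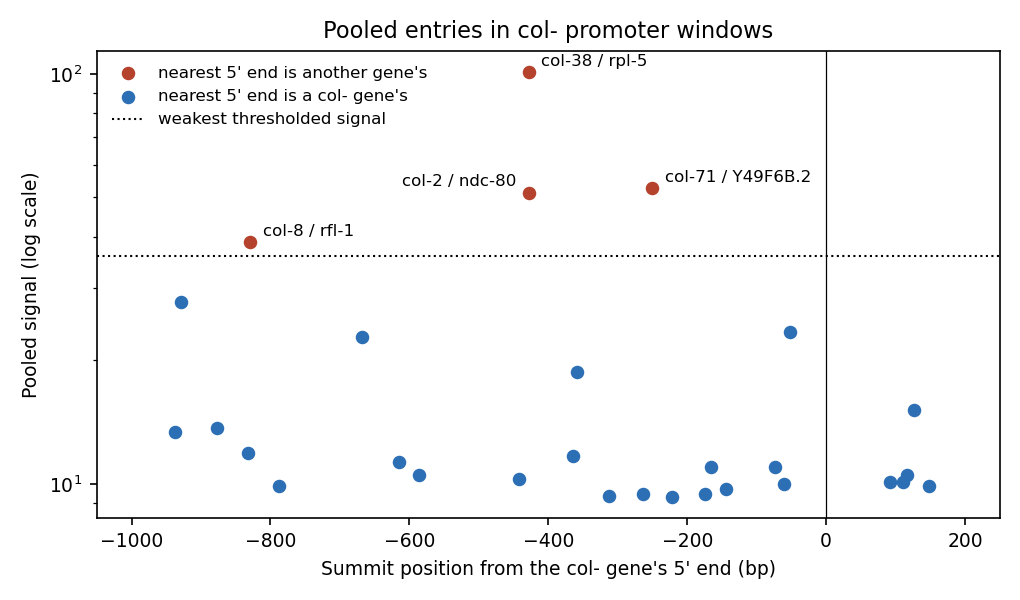
Position of each of the 29 pooled entries in col- promoter windows relative to the 5' end of the col- gene (bp, horizontal axis, 0 at the 5' end) against pooled signal (vertical axis, log scale). Colours show whether the nearest 5' end belongs to a col- gene. The 4 entries above the dotted line, which marks the weakest thresholded signal of 35.9, lay nearest to another gene, and the 25 below it lay nearest to a col- gene.

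Genes were then divided by whether the window held a 5' end of another protein-coding gene, a division chosen after the 4 entries had been seen. Such a 5' end lay in the window of 27 members, belonging to a gene outside the family for 23 of them and to another col- gene for 4, which formed the pairs col-3 with col-117 and col-159 with col-160. Among the 27, 4 had a thresholded entry (14.8%, exact interval 4.19 to 33.7) beside 20.1% of all genes with such a window. Among the other 129 members 0 had one (exact interval 0 to 2.82%), beside 5.95% of all genes without a second 5' end in the window. In the pooled list 9 of the 27 had an entry (33.3%, 16.5 to 54.0) beside 50.4% of all such genes, and 21 of the 129 (16.3%, 10.4 to 23.8) beside 32.4%. Within each kind of window the col- share was below that of all genes, but for the 27 members the intervals in both the thresholded set and the pooled list included the background share.

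**Figure D3:**
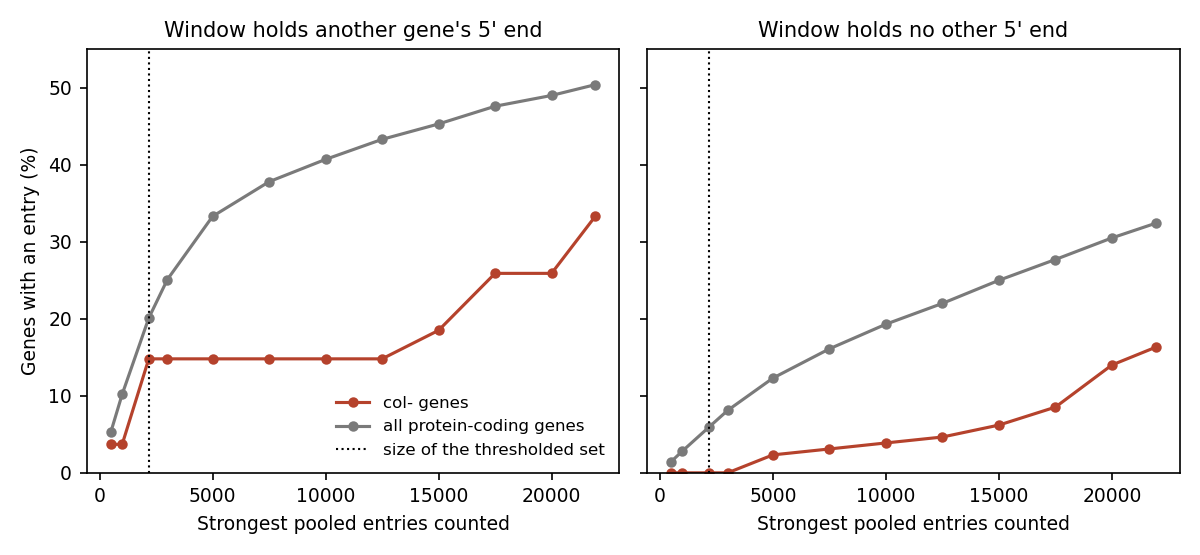
Share of genes with a promoter entry (percent, vertical axis) as more of the pooled list is counted from its strongest entry down (horizontal axis), for windows that hold another gene's 5' end (left, 27 col- genes) and windows that do not (right, 129 col- genes). At the size of the thresholded set, marked by the dotted line, the col- shares were 14.8% and 0, beside 20.1% and 5.95% of all genes.

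The col- share stayed below that of all genes at each depth of the pooled list that was counted. Among the 1000 strongest entries 1 member was reached (0.641%) beside 4.52% of all genes, among the 5000 strongest 7 members (4.49%) beside 17%, and among the 10000 strongest 9 members (5.77%) beside 24.2%. The remaining members came from the weaker end: of the 29 distinct pooled entries at col- genes, 18 (62.1%) lay in the weaker part of the list beyond its median rank, beside 40.0% of the 7913 entries in promoter windows of all genes.

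Below the threshold the strongest member was col-185, with a pooled signal of 27.8 at -929 bp. Replicate 2 had a signal of 23.9 there (percentile 93.8) and replicate 1 had no entry. At col-48 the pooled signal was 23.4 at -52 bp, in an intron of the MAP kinase kinase gene mek-2, with 7.67 in replicate 1 and 12.2 in replicate 2. At col-63 the pooled signal was 22.8 at -668 bp, with a second entry of 15.1 at 127 bp. The strongest replicate 1 signal at col-63 was 15.7 and overlapped the upstream entry, whereas the only replicate 2 signal, 5.97, overlapped the downstream entry, so the replicates were strongest at different places. At col-83 the pooled signal was 18.7, with 15.7 in replicate 2 and no entry in replicate 1.

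The other members named below the threshold had pooled signals from 10.3 to 13.7. They were col-44 (13.7), col-110 (13.4), col-166 (11.9), col-146 (11.7), col-169 (11.3), col-3 and col-117 (11, a single entry between the pair), col-81 (11), col-88 (10.5), col-165 (10.5) and col-41 (10.3). Replicate 2 had an entry in the window at col-44, col-110, col-146, col-3 with col-117, col-81, col-165 and col-41, and replicate 1 at col-110, col-166 and col-169, although at col-110 and col-169 that entry did not overlap the pooled one. At col-88 neither replicate list had one. The col-44 entry lay in the coding sequence of the neighbouring member col-9, whose 5' end was the nearest.

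**Figure D4:**
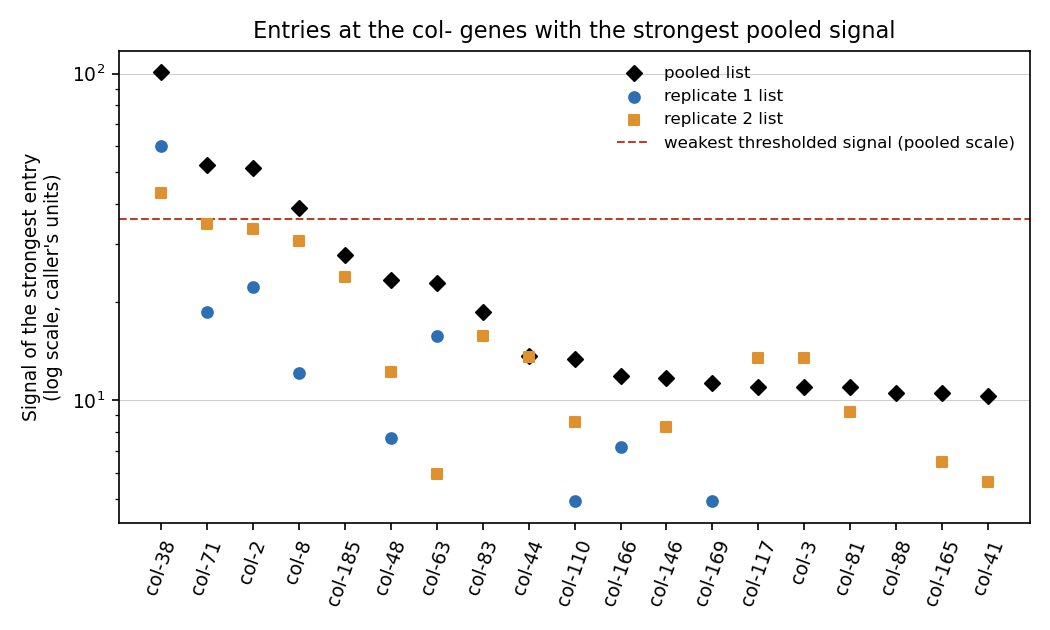
Signal of the strongest entry (vertical axis, log scale, the authors' units) at the 19 col- genes with the highest pooled signal, in the pooled list (diamonds), replicate 1 (circles) and replicate 2 (squares). A missing symbol means no entry in that list, and signals are not scaled between lists. The dashed line marks the weakest thresholded signal of 35.9, on the pooled scale, and the 4 leftmost pooled signals, from col-38 to col-8, lie above it.

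The replicates overlapped less at col- genes than over all genes. An entry in both replicate lists was found at 14 members (8.97%, exact interval 4.99 to 14.6) beside 28.7% of all genes. These 14 were 29.8% of the members with a replicate 1 entry and 33.3% of those with a replicate 2 entry, beside 64.1% and 66.7% over all genes. Replicate 1 alone had an entry at 33 members (21.2%, beside 16% of all genes) and replicate 2 alone at 28 (17.9%, beside 14.3%), so entries in a single replicate were somewhat more frequent at col- genes than over all genes. At 10 of the 14 the entries of both replicates overlapped by at least 1 bp (71.4%, beside 82.4% of all genes with both), and at 6 the summits lay within 50 bp (42.9%, beside 53.4%). The col- entries also had lower signal ranks than those of all genes, and the part of signal strength in the lower overlap was not tested.

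The pooled list did not hold an entry at 5 of the 14 (3.21% of the family). Over all genes it lacked one at 625 of the 5724 with both replicates (3.13% of all genes). The 5 members were col-72 (4.82 in replicate 1 and 9.27 in replicate 2), col-139 (4.53 and 6.94), col-140 (7.61 and 5.83), col-94 (5.0 and 5.45) and col-86 (4.05 and 5.68). The lower of the percentile ranks in the replicate lists was at most 29.8 for these genes, at col-72, while it was 98.2 at col-38, 95.5 at col-2, 94.0 at col-71, 89.0 at col-8 and 74.1 at col-48. After these the next was col-110 at 32.1. The 5 members above this gap include col-48 as the only one outside the thresholded set. The gap was seen in these values, and the same count over all genes was not made.

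Sites of the FoxA type were searched on both strands within 100 bp of each summit. The strict site was TGTTTAC or TGTTTGC. The relaxed PHA-4 site comprised 16 words (T, a purine, a pair of T, then G or T, a purine and a pyrimidine), which include both strict words. The strict site stood at 0 of the 29 pooled col- entries (exact interval 0 to 11.9%), beside 13.8% of the 7913 pooled promoter entries of all genes. In replicate 1 it stood at 1 of 57 entries (1.75%, exact interval 0.0444 to 9.39), at col-153, beside 11.6%. In replicate 2 it stood at 2 of 43 (4.65%, 0.568 to 15.8), at col-146 and col-168, beside 11.3%. These 3 genes were singled out after their values were seen, with signals of 5.41 at col-153, 8.30 at col-146 and 9.57 at col-168, each in its own replicate list. The col-146 site started at -96 bp from the replicate 2 summit. The overlapping pooled summit lay further from that site, which fell just outside its 100 bp. For this entry the pooled count thus depends on the window edge. The replicate and pooled entries share reads and so are not independent counts.

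The relaxed site stood at 12 of 29 pooled col- entries (41.4%, exact interval 23.5 to 61.1) beside 55% of all, at 35.1% beside 52.7% in replicate 1, and at 32.6% beside 52.8% in replicate 2. The background share lay inside the counting interval in the pooled list and above it in both replicate lists. GAGAGA stood at 27.6% of pooled col- entries beside 24.9%, and TGATAA, of the kind that GATA factors bind, at 17.2% beside 15.7%. In the replicate lists GAGAGA was at a lower share of col- entries than of all, with 15.8% beside 21.5% in replicate 1 and 16.3% beside 21.7% in replicate 2. TGATAA was at 12.3% beside 17% in replicate 1 and at 16.3% beside 16.1% in replicate 2. For both words and in each of these lists the background lay within the counting interval of the col- share. Summit windows at col- genes had a median GC content of 41.3% in the pooled list, beside 38.8% at all promoter entries. The pooled col- entries were also weaker, with a median rank of 15336 beside 8410 over all pooled promoter entries. Over all genes the strict site stood at 20.7% of thresholded promoter entries and at 13.8% of pooled ones. The part of GC content and of signal rank in the motif shares was not tested.

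**Figure D5:**
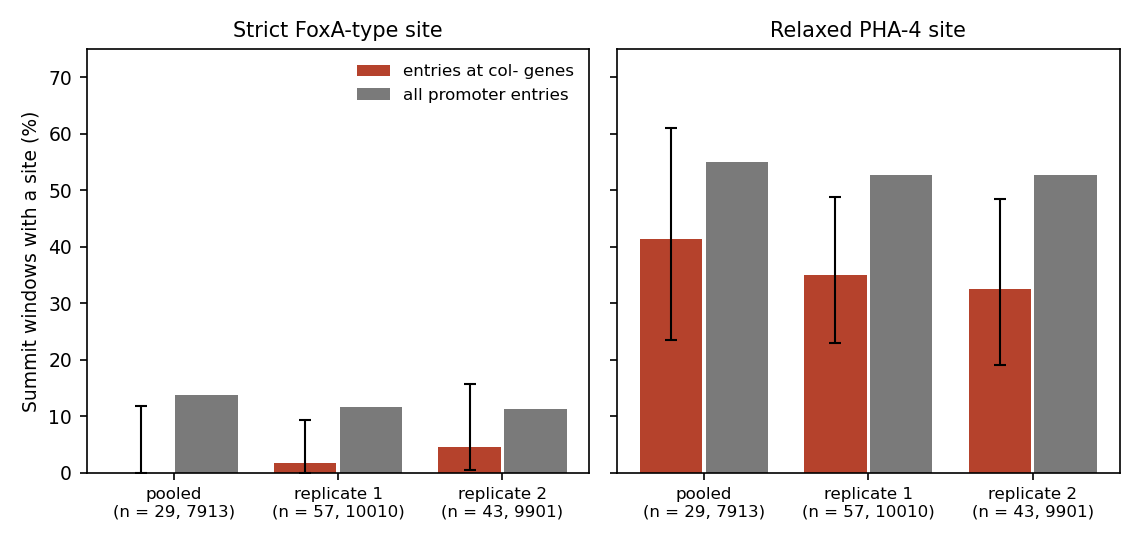
Share of summit windows (percent, vertical axis, 100 bp on each side of the summit) that hold the strict FoxA-type site (left) or the relaxed PHA-4 site (right), for entries at col- genes and for all promoter entries in the pooled and replicate lists. Numbers under each list give the col- entries and all promoter entries, and error bars are exact 95% intervals on the col- shares. The strict site was at 0 of 29 pooled col- entries beside 13.8% of all.

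In the whole 1000 bp upstream of the gene's outermost 5' end, 40 of 156 members held the strict site (25.6%) beside 29.7% of all genes, 93.6% held the relaxed site beside 96.1%, 51.9% held GAGAGA beside 45.7%, and 71.8% held TGATAA beside 66.0%. Median GC content of these stretches was 34.9% beside 34.3%. Of the 40 members with the strict site, 10 had a pooled entry (25%), and of the 116 without it 20 had one (17.2%). Over all genes these shares were 42.0% and 34.2%, so that both kinds of col- gene lay below the genes of the same kind.

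By position, 15 of the 29 pooled summits at col- genes lay in intergenic sequence and 7 in coding sequence (24.1%, beside 13.7% of all pooled promoter entries). Of these 7, 4 lay in the coding sequence of a col- gene itself and the others in that of genes outside the family. The intergenic share over all pooled promoter entries was not counted. The median distance from a member's 5' end to its strongest pooled summit was -335.5 bp, beside -245 bp over all genes.

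Along the genome the family was spread over all chromosomes, with 41 members on IV (26.3% of the family, beside 16.4% of all genes), 31 on V, 27 on X, 24 on II, 21 on I and 12 on III. The share of members with a pooled entry was below that of all genes of the same chromosome on each of them: 14.3% beside 42.9% on I, 25% beside 34.0% on II, 33.3% beside 46.7% on III, 17.1% beside 35.9% on IV, 12.9% beside 27.4% on V and 22.2% beside 40.6% on X. Members also lay next to each other. In 21 groups separated by gaps of at most 10000 bp stood 50 members, of which 9 had a pooled entry (18%), and 21 of the other 106 had one (19.8%). The largest group, col-167 to col-171 on X, held 5 genes, and 1 of them, col-169, had a pooled entry.

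Genes with other roles in the cuticle or its regulation, and collagens outside the cuticle, were read in the same way. Of 19 cuticle collagens named for mutant phenotypes, 2 had a thresholded entry and 6 a pooled one (31.6%), beside 9.16% and 36.5% of all genes. The thresholded and pooled counts were near the background shares. A list of 19 is too short to set them apart from the col- shares of 2.56% and 19.2%, and the difference between the families was not tested. An entry in both replicate lists was found at 1 of the 19, beside 28.7% of all genes and 8.97% of the col- genes. The median pooled signal of the 6 genes was 11, the same as for the col- genes with a pooled entry. At rol-6, which acts in the helical twist of the body in roller mutants, the pooled signal was 133 at -511 bp, with 127 in replicate 1 and no entry in replicate 2, so this value rests on 1 replicate. At bli-6 it was 47.2, with 23.8 in replicate 1 and 24.6 in replicate 2. This summit lay at -342 bp from bli-6 and nearer, at -200 bp, to hrpf-2, which encodes an RNA-binding protein. Among the furrow collagen genes, dpy-3 (11.2) and dpy-10 (9.78) had a weak pooled entry, and dpy-2, dpy-7, dpy-8 and dpy-9 had none. This share was near the 36.5% of all genes with a pooled entry. Of those without one, dpy-2 (9.45) and dpy-8 (6.58) had an entry in replicate 2. The dpy-10 summit lay at -516 bp from dpy-10 and nearer, at 188 bp, to T14B4.19.

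None of the 18 genes for collagen processing and cross-linking had a thresholded entry, beside 9.16% of all genes. A list of 18 is too short to set this 0 apart from that share. A pooled entry was found at 10 of them (55.6%, beside 36.5% of all genes). An entry in both replicate lists was found at 9 of the 18, beside 28.7% of all genes. The strongest were pdi-2, a protein disulfide isomerase that is a subunit of the prolyl hydroxylase (32.8 pooled, 23.4 in replicate 1 and 20 in replicate 2), and phy-4, a prolyl hydroxylase subunit (25.5, 6.33 and 18.6). The median pooled signal of these 10 was 19.7, beside 11 for the 30 col- genes and 18.4 for all genes with a pooled entry. Of the 4 collagens outside the cuticle let-2, a type IV basement membrane collagen, had a pooled entry (10.4), and of the 6 cuticlins cut-3 had one (9.40), which is 16.7% of that list beside 36.5% of all genes. Of 11 epidermal regulators 5 had a pooled entry (45.5%, beside 36.5%) and 0 a thresholded one (beside 9.16%), the strongest being the GATA factor genes elt-6 (19.4) and elt-1 (15.9).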

How the data were processed

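Processed peak lists of 2 biological replicates were analysed. Per the deposited descriptions of the files, peaks were called on each replicate and on both pooled against control files, and the thresholded set was derived from those lists by the irreproducible discovery rate. For the caller, the aligner and the threshold, names and settings were not given in the sources used here. The signal value of each entry is as deposited by the authors, is not scaled between lists, and was used only for ranks within a list. Lists on ce10 were not used. Control samples were not analysed here.

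Entries were assigned by summit to promoter windows of Ensembl release 115 genes, and the same was done for all protein-coding genes as background. Assignment was checked on simulated positions. Alternatives changed the window, the assignment, the threshold, the motif or the replicates used. No test was run, since there was 1 group. Intervals on shares are exact Clopper-Pearson intervals, also where the count is 0. Members and lists were chosen with earlier results of these data known. The 5 other lists held 59 genes, of which 58 were found (not ram-4).

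Named genes were members with a thresholded entry, the next 15 by pooled signal, up to 5 others with an entry in both replicate lists, and the leading 2 of each other list. Exceptions are named as such or serve as examples. Chosen after seeing the data were the division by a second 5' end, the words GGAGCGC and AGACGC, and 5' ends of every transcript. The work used Biopython 1.88, matplotlib 3.10.9 and pandas 2.3.3 with scipy 1.17.1, numpy 2.4.6 and Python 3.11.15.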

Additional observations from a re-analysis of the deposited data

How the results depend on the processing

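Of 28 alternatives, 21 left the counts within 1.5 times or the motif share within its interval, and 7 did not. The count of 4 members with a thresholded entry stood beside 9.16% of all genes. It fell to 0 with the nearest 5' end only (6.64% of all genes) and with windows that hold no other 5' end (5.95%). Among the stronger part of the thresholded entries, where fewer entries are counted, it fell to 1, col-38 (4.9%). The pooled count of 30 fell to 10 at or above the median pooled signal (25.2% of all genes). The count of 14 with both replicates rose to 30 with 2000 bp upstream (40.9% of all genes) and fell to 6 with summits within 50 bp (15.3%). Replicate 1 or 2 was also left out, with as many of the strongest entries of the other replicate in place of the list. The thresholded count was then 5 without replicate 1 (8.2% of all genes) and 3 without replicate 2 (9.61%). The pooled count was 30 (35.5%) and 33 (37.3%). Over the full list of the other replicate, the share with the strict site ran from 1.75% to 4.65%. With the relaxed words in place of the strict ones the pooled share was 41.4%. In each alternative the col- share was below that of all genes. No paired analysis was possible because there is 1 group. Depth is unknown, and whether weak entries in 1 replicate are background was not tested.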
